A study of Mus musculus with 9 samples.

Results

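Sciatic ganglia of injured old mice were compared with those of uninjured young mice, the pair of groups in this study that lies furthest apart, and the level in uninjured old mice was then placed between these 2 ends for each gene. Gene expression had been measured by RNA sequencing of whole dorsal root ganglia of C57BL/6 mice, 24 h after surgery, in 3 groups of 3 libraries, each made from the sciatic ganglia of 2 pooled mice. Young sham mice were 8 to 10 weeks old and had sham surgery, aged sham mice were 20 to 22 months old and had sham surgery, and aged injury mice were 20 to 22 months old and had the sciatic nerve injured. A young injured group was not analysed here, so the difference between the 2 ends joins a difference in age with a difference in surgery. The comparison used 6 of the 9 libraries as its ends and all 9 for the spread between pools. Of the 17601 identifiers with a mean of at least 0.2 FPKM (fragments per kilobase of gene, adjusted for library depth) over the 9 libraries, the 16202 autosomal genes are reported.

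The pools also differed in sex. Averaged over Ddx3y, Eif2s3y, Kdm5d and Uty, Y-linked expression was at 101%, 93.7% and 105% of the young sham mean in the young sham libraries, at 67.9%, 0% and 0.0695% in aged sham, and at 0.0225%, 0% and 0% in aged injury. The female-specific RNA Xist reached 9.77, 13.1 and 9.91 FPKM in aged injury and at most 0.02 FPKM in young sham. Young sham pools thus carried male RNA and aged injury pools female RNA, aged sham replicate 1 carried both, and sex, age and injury cannot be told apart between the 2 ends. Xist was at 11.25 and 10.23 FPKM in aged sham replicates 2 and 3, so these carried female RNA. The step from young to aged sham, and each position drawn from it, therefore mixes age with sex as well. With Y-linked expression as a covariate, a fit in which aged sham replicate 1 alone separates sex from group, 15 of 16202 genes passed the test and all were higher, among them Npy, Lgals3, Csf1, Flrt3, Gadd45a, Fgf3, Zfp729b, Areg and Stmn4. The FPKM worth of 1 read ran from 0.816 to 1.18 times that of young sham replicate 1, so the libraries were of like depth, and 20237 to 21100 identifiers were above 0. All 19 listed genes of sensory neuron identity and all 15 of myelinating Schwann cells were above the filter. Values below are in the order of replicates 1 to 3. The neurofilament gene Nefl was at 1256, 1168 and 1302 FPKM in young sham and 945, 884 and 963 FPKM in aged injury.

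A dorsal root ganglion holds the cell bodies of sensory neurons, the satellite glia that wrap them, Schwann cells around their axons, and resident macrophages, vessels and connective tissue. When the axon is cut, the cell body starts a gene program led by transcription factors such as Atf3 and Jun. It adds growth-related proteins, changes the neuropeptides it makes and releases signals such as Csf1 that act on macrophages and microglia. Ageing of nerve tissue is known for a slow rise in antigen presentation, complement and immune cells, and for loss of myelin and glial transcripts. In whole ganglia the RNA of all these cells is mixed, so a larger number of cells of a type and more RNA per cell cannot be told apart.

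Of the 16202 genes, 2162 (13.3%) differed between aged injury and young sham at an adjusted p under 0.05 in limma, 1386 higher (8.55%) and 776 lower (4.79%). At 2-fold or more there were 345 higher and 35 lower. The 3 and 3 values did not overlap in 5825 genes (36%) and in 2158 of the called genes. The median log2 change over all genes was 0.02. Setting the libraries to equal medians turned the split into 985 higher and 1524 lower, with the median of all genes at -0.05. Quantile normalization gave 1122 higher and 1121 lower, so the balance of small rises and falls depends on the scaling. Leaving out young sham replicate 1 or 3 gave 965 and 909 calls. Leaving out aged injury replicate 1, 2 or 3 gave 1201, 1420 and 895.

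The position of the aged sham mean on the log2 scale, 0 at the young sham mean and 1 at the aged injury mean, had a median of 0.503 over the 2162 genes, with quartiles at 0.248 and 0.783. Between the 2 means lay 1696 of them (78.4%). By class, 468 genes (21.6%) were at the young end (within 0.25 of 0), 1010 (46.7%) between, 527 (24.4%) at the injured end (within 0.25 of 1), 79 (3.65%) beyond the young end and 78 (3.61%) beyond the injured end. Taken one at a time, the aged sham libraries gave medians of 0.499, 0.529 and 0.514. The comparisons that adjoin, aged sham against young sham with 655 genes called (4.04%) and aged injury against aged sham with 692 (4.27%), share libraries with the one described and are given beside it gene by gene.

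**Figure D1:**
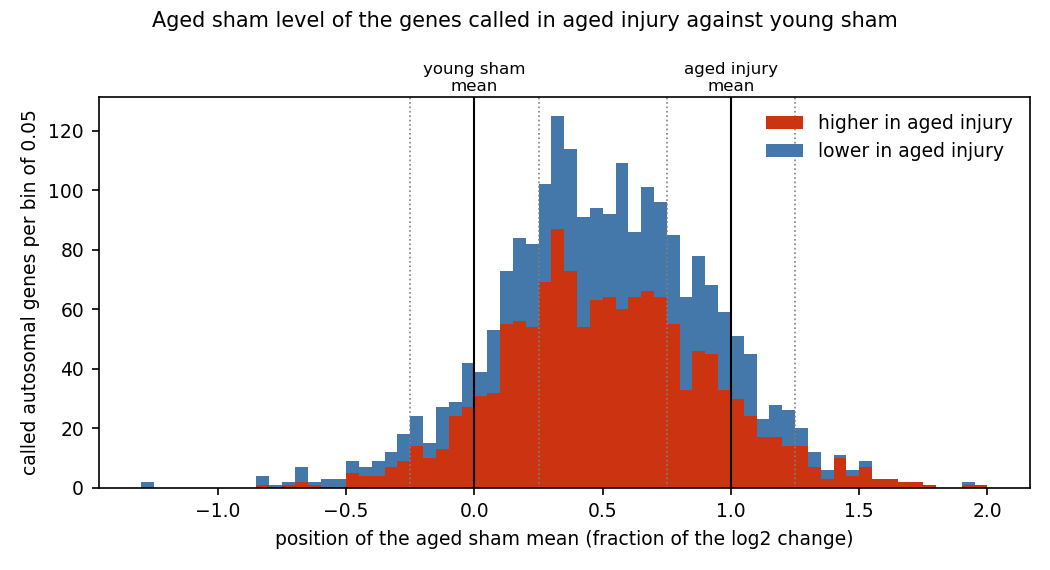
Number of called autosomal genes (vertical axis) by the position of the aged sham mean between the young sham mean at 0 and the aged injury mean at 1 (horizontal axis), with genes higher in aged injury in red stacked on the same bars with genes lower in blue. Dotted lines mark the limits of the 5 classes, and the middle class holds 1010 of the 2162 genes.

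Transcription factors of the injury program were higher in injured old ganglia and mostly near the young level in old sham ganglia. Of 15 tested, 10 rose (66.7%, against 8.55% of all genes) and 0 fell (median log2 change 0.64), and the called members had a median position of 0.151. Atf3 (chr1:191170296-191218039), the stress factor that marks axotomized neurons, was at 23.5, 42.3 and 16.3 FPKM in young sham, 95.6, 27.1 and 27.3 in aged sham and 278, 192 and 271 in aged injury. That is a 9.58-fold rise (log2 change 3.26 ± 0.49 SE, adjusted p = 0.00502), with no overlap between the ends and with aged sham replicate 1 alone standing above the young libraries. The position of Atf3 was 0.216, and 0.0312 without aged sham replicate 1. Jun, its partner in AP-1 dimers, rose 2.39-fold from 29.3, 45 and 28 FPKM to 87, 67.7 and 85.4 FPKM (adjusted p = 0.00358) and was at 43.3, 37 and 37.7 FPKM in aged sham. Klf6, a zinc finger factor that supports axon growth, was at 22, 22.9 and 24.3 FPKM in young sham, 24.4, 21.6 and 19.7 in aged sham and 41.6, 38.2 and 42.3 in aged injury. Klf6 changed by 0.82 ± 0.08 SE on the log2 scale (adjusted p = 0.000914). Its old and young sham libraries overlapped, and all 3 injured libraries lay above both. Smad1, which carries bone morphogenetic protein signals, had the same order with 7.68, 7.56 and 6.92, 7.56, 7.35 and 7.64 and 11.2, 11 and 11.7 FPKM (adjusted p = 0.00109, position 0.0442). Sox11 (log2 change 1.85, position 0.11, or -0.133 without aged sham replicate 1) and Myc (0.64, position 0.112) were also at the young end, while Fosl2, an AP-1 member, lay between at 0.32. The Sox11 call was lost without any 1 of young sham replicate 3 and aged injury replicate 3 (adjusted p = 0.0509 to 0.0542). Stat3 and Cebpd, which respond to cytokines, also rose (adjusted p = 0.00304 and 0.00694) and lay at positions 0.433 and 0.531.

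The promoters of 4 rises are printed to show what the sequence before the start of genes of different placement holds. The pick was made among named genes with a window in the RefSeq table (build GRCm38.p6), leaving a chromosome out. In it, Atf3 and Cxcl13 have the largest rise at the young and the injured end. Sprr1a and Igtp, which lay between, were picked after their motif matches were seen. Each line gives the 250 bases before the annotated start, 5′ to 3′ on the strand of the gene. Capitals mark a match, on either strand, to AP-1 (TGANTCA), the cyclic AMP element (TGACGTCA) or the core of the interferon-stimulated response element.
Atf3, chr1:191183334-191183583, minus strand: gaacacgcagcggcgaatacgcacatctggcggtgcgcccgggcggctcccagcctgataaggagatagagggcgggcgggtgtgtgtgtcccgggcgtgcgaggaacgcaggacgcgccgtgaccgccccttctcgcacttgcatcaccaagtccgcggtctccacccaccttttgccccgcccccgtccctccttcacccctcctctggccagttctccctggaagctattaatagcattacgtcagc
Sprr1a, chr3:92485882-92486131, minus strand: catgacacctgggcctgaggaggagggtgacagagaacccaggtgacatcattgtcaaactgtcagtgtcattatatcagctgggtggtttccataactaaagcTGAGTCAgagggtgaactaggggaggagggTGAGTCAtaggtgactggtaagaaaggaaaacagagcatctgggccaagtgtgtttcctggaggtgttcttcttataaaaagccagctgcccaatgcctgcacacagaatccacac
Igtp, chr11:58199306-58199555, plus strand: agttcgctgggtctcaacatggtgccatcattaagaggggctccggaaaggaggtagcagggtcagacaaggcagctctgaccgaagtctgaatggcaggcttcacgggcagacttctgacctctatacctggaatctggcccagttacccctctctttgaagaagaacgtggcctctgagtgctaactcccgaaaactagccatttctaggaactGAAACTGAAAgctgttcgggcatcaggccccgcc
Cxcl13, chr5:95956689-95956938, plus strand: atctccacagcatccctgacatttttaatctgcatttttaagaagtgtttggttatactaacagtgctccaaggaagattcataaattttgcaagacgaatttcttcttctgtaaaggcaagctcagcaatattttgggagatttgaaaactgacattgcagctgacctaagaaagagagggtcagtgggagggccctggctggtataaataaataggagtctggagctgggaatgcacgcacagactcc
Sprr1a held 2 AP-1 matches, Igtp 1 interferon match, and Atf3 and Cxcl13 no match to these letters in this window. The Atf3 window lies inside the span given for the gene above, so the sequence before its outermost start was not searched. AP-1 was found in 5.7% of the 11433 tested autosomal genes with a window (7.82% of all 27025 genes in the table), in 7.9% of the 987 called higher and in 2.79% of the 573 called lower. The interferon core was found in 3.26% of the tested genes (3.46% of the table), 6.18% of those called higher and 3.14% of those called lower, and the cyclic AMP element in 2.93% (1.77% of the table), 2.23% and 3.14%. Among the genes called higher, AP-1 stood in 7.3% of those at the young end, 9.22% of those between and 5.12% of those at the injured end. These are descriptions of the letters only.

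Growth-associated proteins, proteases and receptors of the injured neuron followed the same order. Of 23 tested effectors, 13 rose (56.5%, against 8.55% of all genes) and 0 fell (median log2 change 0.70), with a median position of 0.208. With equal medians 1 fell. Sprr1a (chr3:92483952-92485895), a cornified envelope protein that injured neurons make, was at 2.45, 3.69 and 1.11 FPKM in young sham, 8.19, 4.67 and 6.84 in aged sham and 22.5, 16.1 and 23.7 in aged injury. It rose 9.06-fold (log2 change 3.18 ± 0.38 SE, adjusted p = 0.00184), and every aged sham library lay above every young one and below every injured one. Its position was 0.477, with adjusted p = 0.0539 for aged sham against young and 0.0438 for injury against aged sham. Flrt3, an adhesion protein of growing axons, was at 6.38, 5.79 and 4.01 FPKM in young sham, 9.32, 5.67 and 5.25 in aged sham and 31.9, 25.4 and 28.8 in aged injury. Flrt3 changed by 2.41 ± 0.23 SE on the log2 scale (adjusted p = 0.000699). Here the old sham libraries reached down into the young range and the position was 0.123, or 0.0181 without aged sham replicate 1. Plaur, the receptor of urokinase, rose as well (log2 change 2.11, adjusted p = 0.00369). Gpr151, an orphan receptor of sensory neurons, went from 1.44, 3.3 and 1.76 FPKM to 21.2, 13.4 and 16.5 FPKM (adjusted p = 0.00727). Its aged sham level was 7.75, 2.36 and 1.76 FPKM, and its position of 0.211 became 0.00116 without aged sham replicate 1. Itga7, the laminin receptor subunit, rose 2.6-fold and Tnfrsf12a, the receptor of the cytokine TWEAK, 3.01-fold (adjusted p = 0.00142 and 0.00192, positions 0.208 and 0.314). Gap43, a growth cone protein already abundant in these neurons, did not pass the test. It was at 181, 184 and 167 FPKM in young sham and 189, 171 and 209 FPKM in aged injury (log2 change 0.09 ± 0.08 SE, adjusted p = 0.506).

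**Figure D2:**
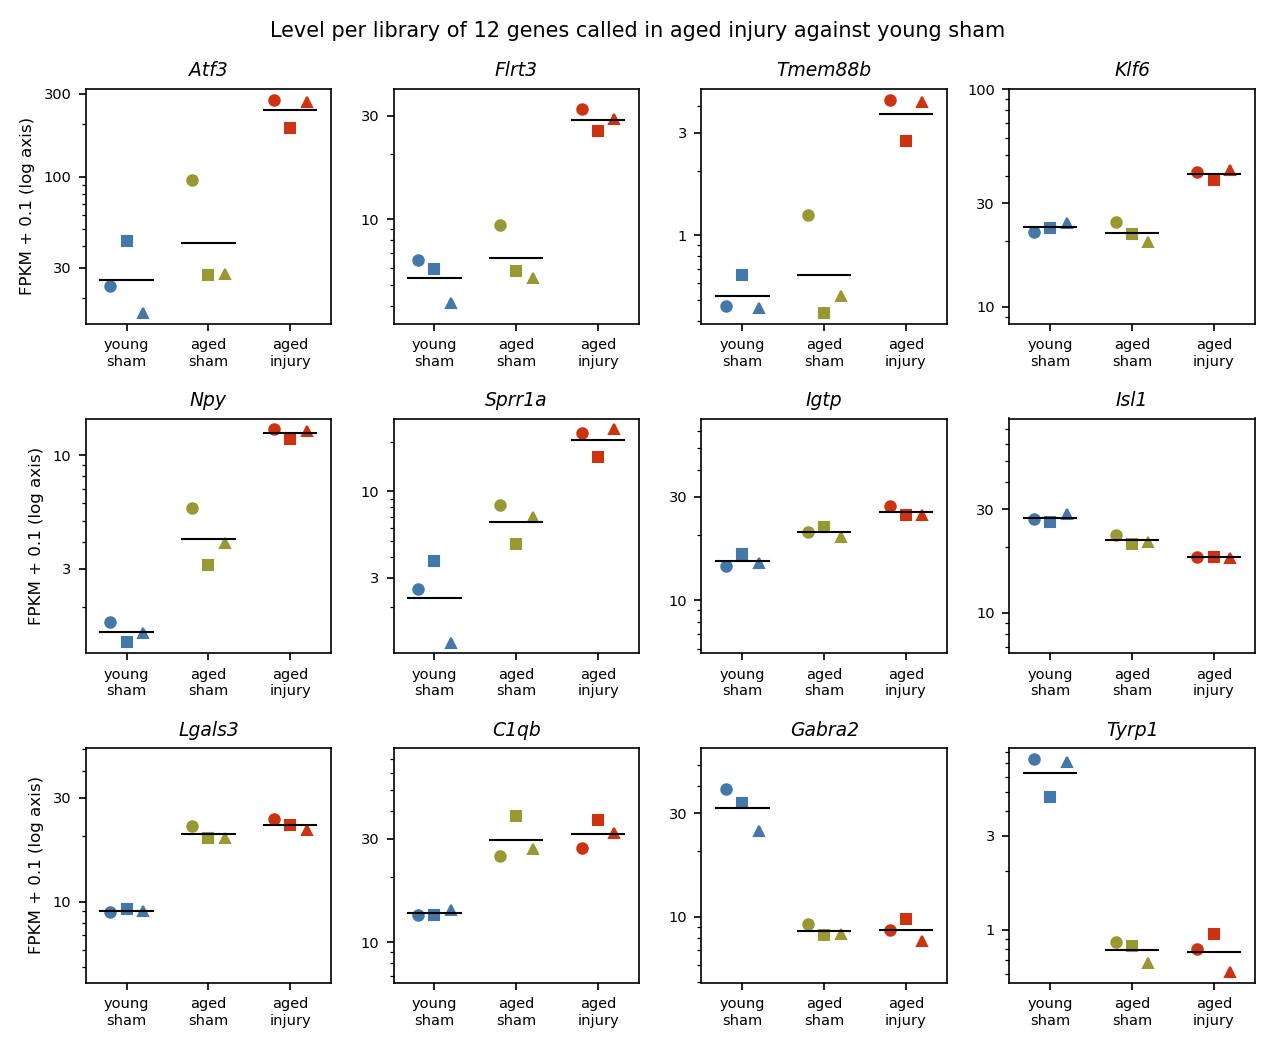
FPKM + 0.1 on a log axis (vertical) in each of the 9 libraries for 12 genes, with young sham in blue, aged sham in olive and aged injury in red, circles, squares and triangles for replicates 1, 2 and 3, and a bar at the mean of the log values of each group. Aged sham lies near young sham for Klf6, about midway for Igtp and Isl1, and near aged injury for Lgals3, Gabra2 and Tyrp1, and aged sham replicate 1 stands above the other aged sham libraries for Atf3, Flrt3 and Tmem88b.

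Of 14 neuropeptide genes, 4 rose (28.6%, against 8.55% of all genes) and 0 fell. Below 0.2 FPKM in young sham were 2 of the 14, 1 of them called. These 2 passed the filter through the old libraries and could hardly fall. Npy (chr6:49822710-49829507), neuropeptide Y, was at 1.61, 1.28 and 1.42 FPKM in young sham, 5.63, 3.01 and 3.84 in aged sham and 13, 11.7 and 12.7 in aged injury. The 3 groups did not overlap, and both steps passed the test (log2 change 3.04 ± 0.19 SE from end to end, adjusted p = 0.000438, with 0.0167 for aged sham against young and 0.00486 for injury against aged sham). Old sham ganglia stood at position 0.47, or 0.393 without aged sham replicate 1. Galanin (Gal) rose 3.99-fold from 18.2, 25.9 and 16.4 FPKM to 93.7, 65.3 and 81.2 FPKM (adjusted p = 0.00283), with 47.6, 27.7 and 23.9 FPKM in aged sham. Adcyap1, which encodes the peptide PACAP, was at 58.1, 76.2 and 54.3 FPKM in young sham and 164, 155 and 171 FPKM in aged injury (adjusted p = 0.00154), and its position was 0.0897, or -0.034 without aged sham replicate 1. Grp, gastrin-releasing peptide, rose from a low level (log2 change 2.17 ± 0.50 SE, adjusted p = 0.0248). Grp lost its call without any 1 of young sham replicates 1 and 3 and aged injury replicates 1 and 2 (adjusted p = 0.0568 to 0.0841).

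Secreted growth factors and cytokines rose in 8 of 20 tested (40%, against 8.55% of all genes). They fell in 1 (5%, against 4.79%), and the median position of the called was 0.164. There were 5 rises left without any 1 of young sham replicates 1 and 3 and aged injury replicate 3. Csf1 (chr3:107741048-107760469), the growth factor of macrophages and microglia, was at 4.38, 5.12 and 4.05 FPKM in young sham, 7.0, 4.57 and 5.11 in aged sham and 15.8, 13.1 and 15.3 in aged injury. It rose 3.21-fold (log2 change 1.68 ± 0.16 SE, adjusted p = 0.000699), and the injured libraries were apart from all 6 sham libraries. Il6, an acute cytokine, went from 0.558, 0.592 and 0.989 FPKM to 2.68, 2.55 and 4.42 FPKM (adjusted p = 0.00229, position 0.129). Fgf3, a fibroblast growth factor, was nearly silent in young sham at 0.424, 0.519 and 0.308 FPKM and stood at 4.87, 3.61 and 3.48 FPKM in aged injury (adjusted p = 0.0105, position 0.0752). In aged sham it was at 1.64, 0.231 and 0.267 FPKM, and its position was -0.183 without aged sham replicate 1. Areg, a ligand of the epidermal growth factor receptor, rose with a log2 change of 2.02 (position -0.073). Tgfb1, which acts on many cells, rose by 0.86 with a position of 1.03. Tgfb1 lost its call without any 1 of young sham replicate 1 and aged injury replicates 2 and 3 (adjusted p = 0.0642 to 0.0817). Nrg1, the axonal signal for Schwann cells, was the one that fell, from 28.9, 28.3 and 27.4 FPKM to 22.4, 22.7 and 22.9 FPKM (log2 change -0.32 ± 0.05 SE, adjusted p = 0.00574), while aged sham was at 27.4, 28.1 and 29.3 FPKM.

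Genes of cell cycle arrest split between the ends. Of 12 tested, 4 rose (33.3%, against 8.55% of all genes) and 0 fell, or 1 with equal medians. Gadd45a, a growth arrest and DNA damage gene, rose 5.27-fold from 15, 22.3 and 15.7 FPKM to 101, 74.4 and 104 FPKM (adjusted p = 0.0022) and was at 37.6, 17.5 and 17.3 FPKM in aged sham. Its position was 0.153, or -0.000913 without aged sham replicate 1. Cdkn1a, the inhibitor p21, stood at the young end with 37.5, 37.9 and 34.9, 47.8, 38 and 32.6 and 70.3, 56.2 and 63.3 FPKM in young sham, aged sham and aged injury (adjusted p = 0.00796, position 0.109, or -0.0808 without aged sham replicate 1). Cdkn2a, the senescence gene for p16 and p19, was placed at the other end. It was at 1.69, 1.99 and 1.07 FPKM in young sham, 4.32, 4.67 and 3.52 in aged sham and 3.02, 3.37 and 4.45 in aged injury. Cdkn2a changed by 1.16 ± 0.22 SE on the log2 scale (adjusted p = 0.0125, position 1.18). None of the 11 proliferation genes passed the test in limma, 1 of them at an unadjusted p under 0.05.

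Further genes with a large rise at the young end were Tmem88b, which went from 0.371, 0.556 and 0.361 FPKM to 4.17, 2.65 and 4.06 FPKM (adjusted p = 0.00306, position 0.118, or -0.0455 without aged sham replicate 1), and Lce1g. Lce1g, a late cornified envelope gene, went from 0.164, 0.522 and 0 FPKM to 2.14, 1.34 and 2.17 FPKM (adjusted p = 0.0478). Lce1g lost its call without any 1 of young sham replicates 1 and 3, aged sham replicate 3 and aged injury replicates 1, 2 and 3 (adjusted p = 0.0629 to 0.153). Bhlhe41, a repressor in the circadian clock, rose 1.82-fold with 8.66, 9.29 and 8.6, 8.99, 8.92 and 9.59 and 17, 15.2 and 16.3 FPKM in young sham, aged sham and aged injury (adjusted p = 0.000462), and its sham libraries of both ages overlapped. It was 1 of 4 rises among 15 clock genes (26.7%, against 8.55% of all genes). With equal medians or quantile normalization 2 of the 15 fell. Without aged injury replicate 1 or aged injury replicate 3, 2 rises were left. Gfra1, the receptor subunit for the neurotrophic factor GDNF, was at 32.5, 32.5 and 29.1 FPKM in young sham, 38.9, 34.6 and 34 in aged sham and 71.2, 54.2 and 65.7 in aged injury (adjusted p = 0.000909, position 0.188).

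Early response and heat shock genes went both ways, with 3 of 14 higher (21.4%, against 8.55% of all genes) and 2 lower (14.3%, against 4.79%). With equal medians 1 was higher. Ier3, which limits apoptosis, was at 12.4, 15.8 and 16.4 FPKM in young sham, 18.3, 21 and 18.7 in aged sham and 25.6, 21.9 and 27 in aged injury (adjusted p = 0.00611, position 0.52). Hsph1, a heat shock co-chaperone, fell from 46.8, 40.3 and 46.3 FPKM over 33.7, 37.3 and 36.9 to 32.7, 33.9 and 31.7 FPKM (adjusted p = 0.00661, position 0.697). The sham and injured libraries of old mice did not overlap in Ier3, and its old sham libraries lay between both ends. Of these rises, 1 was left when young sham replicate 1 or 3 or aged injury replicate 3 was dropped, and 1 fall when young sham replicate 3 or aged injury replicate 1 or 3 was. Genes of the cholesterol list rose in 4 of 17 (23.5%, against 8.55% of all genes), or 2 with equal medians, and fell in 0. Fdps, an enzyme of isoprenoid synthesis, rose 1.37-fold from 27.1, 28.8 and 32 FPKM to 38.6, 43.7 and 38.4 FPKM (adjusted p = 0.00921, position 0.161). The rises numbered 2 when young sham replicate 1 or 3, or any 1 of the injured libraries, was dropped.

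Old sham ganglia went past the young end in 79 genes, so that their mean lay on the far side of young sham from injury. The 6 with the largest change were Zfp729b, Rsad2, Scx, Ugdh, Dok5 and Hist1h4i. Ugdh, which makes UDP-glucuronate for the matrix sugar hyaluronan, was at 5.02, 5.15 and 5.72 FPKM in young sham, 5.21, 4.64 and 3.95 in aged sham and 9.2, 7.7 and 9.77 in aged injury. Ugdh changed by 0.73 ± 0.12 SE on the log2 scale (adjusted p = 0.00716, position -0.28). Scx, the tendon transcription factor scleraxis, fell from 3.67, 4.74 and 4.42 FPKM to 2.62, 2.18 and 1.83 FPKM (adjusted p = 0.00808) and was at 4.65, 6.15 and 5.95 FPKM in aged sham. Zfp729b, a zinc finger gene, rose 2.13-fold (adjusted p = 0.0133, position -0.296). In these 6 genes the adjusted p of aged sham against young sham ran from 0.172 to 0.426, so the step past the young end did not pass the test. Calls of the others were less firm. Zfp729b lost its call without any 1 of young sham replicate 1 and aged injury replicate 3 (adjusted p = 0.0528 to 0.053). The Rsad2 call was lost without any 1 of young sham replicates 1 and 3 and aged injury replicates 1 and 3 (adjusted p = 0.0636 to 0.102). Dok5 lost its call without any 1 of young sham replicates 1 and 3 and aged injury replicates 1 and 3 (adjusted p = 0.0694 to 0.0923). The Hist1h4i call was lost without any 1 of young sham replicates 1, 2 and 3 and aged injury replicates 1 and 2 (adjusted p = 0.0592 to 0.0912).

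Interferon-responsive genes had a median placement between the ends and were spread from beyond the young end to the injured end. Of 27 interferon-responsive genes, 18 rose (66.7%, against 8.55% of all genes) and 0 fell (median log2 change 0.74, median position 0.394). Without young sham replicate 3, 11 rises were left. Igtp (chr11:58199556-58207591), an interferon-inducible GTPase, was at 14.4, 16.3 and 14.8 FPKM in young sham, 20.5, 21.8 and 19.4 in aged sham and 27, 24.7 and 24.6 in aged injury. The 3 groups did not overlap, and both steps passed the test (log2 change 0.74 ± 0.07 SE from end to end, adjusted p = 0.000707, 0.0253 and 0.0473 for the adjoining comparisons). Gbp2, a guanylate-binding protein, rose 1.85-fold from 7.08, 6.27 and 5.84 FPKM to 10.8, 14.3 and 10.8 FPKM, with aged sham at 8.64, 10.1 and 8.64 FPKM (adjusted p = 0.00378, position 0.571). Irgm2, a related GTPase, had a log2 change of 0.77 and a position of 0.513. Stat2, which carries the type I signal, stood at the young end with 17.8, 20.8 and 14.9 FPKM in young sham, 21.7, 18.7 and 18.9 in aged sham and 31.3, 28 and 30.1 in aged injury (adjusted p = 0.00546, position 0.209). The antiviral gene Rsad2 was past that end at -0.447, and Bst2 near the injured end at 0.952. The Bst2 call was lost without any 1 of young sham replicate 3 and aged injury replicates 2 and 3 (adjusted p = 0.0525 to 0.0676).

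Of 14 genes of the integrated stress and unfolded protein responses, 11 rose (78.6%, against 8.55% of all genes) and 0 fell (median position 0.47). With equal medians 7 of the 14 rose. Their rises were small, and 4 and 5 of them passed when young sham replicate 1 or 3 was dropped, and 5 and 6 when aged injury replicate 1 or 3 was. Hspa5, the main chaperone of the endoplasmic reticulum, was at 89.4, 90.8 and 93.1 FPKM in young sham, 93.8, 92.8 and 96.3 in aged sham and 119.8, 125 and 121 in aged injury. Hspa5 changed by 0.42 ± 0.05 SE on the log2 scale (adjusted p = 0.00127) and lay at the young end at 0.119. Xbp1, a transcription factor of that response, had 20, 23.8 and 22.4, 30.2, 27.8 and 24.2 and 32.3, 37.1 and 35.2 FPKM in the same order (adjusted p = 0.0044, position 0.47). Sesn2, a stress-induced sestrin, rose 1.87-fold (adjusted p = 0.00275, position 0.375). Slc2a1, the glucose transporter GLUT1 of vessels and other cells, showed 3 groups with no overlap at 18.6, 18.9 and 18.7, 27.2, 23.9 and 22.3 and 41.4, 34.4 and 41.1 FPKM (log2 change 1.05 ± 0.09 SE, adjusted p = 0.00054). Other endothelial genes gave 1 further rise of the 11 tested, Vwf (18.2% together with Slc2a1, against 8.55% of all genes). Vwf lost its call without any 1 of young sham replicates 2 and 3, aged sham replicate 3 and aged injury replicates 2 and 3 (adjusted p = 0.0502 to 0.122).

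**Figure D3:**
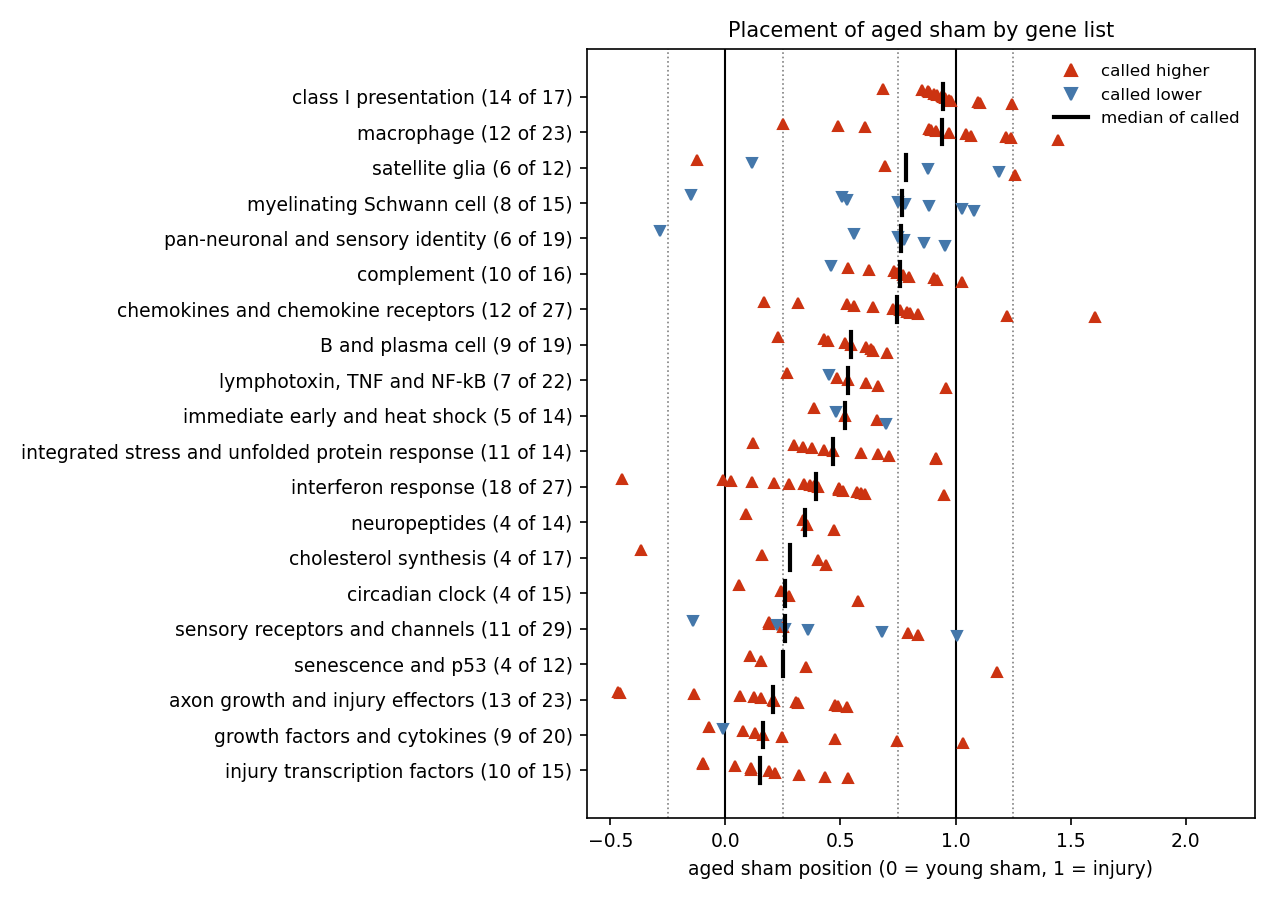
Position of the aged sham mean (horizontal axis) for each called member of the gene lists with at least 4 called members, with red triangles for genes higher and blue triangles for genes lower in aged injury, a black bar at the median of the called members, and the number called of the number tested beside each name. Class I presentation and macrophage genes have medians of 0.944 and 0.943, while injury transcription factors and axon growth effectors have 0.151 and 0.208.

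In old sham ganglia, antigen presentation and macrophage genes lay near the injured level. Among 17 genes of class I presentation, 14 rose (82.4%, against 8.55% of all genes) and 0 fell (median position 0.944). Their median log2 change was 0.83 from end to end and 0.82 for aged sham against young. Only 6 and 1 of them passed when young sham replicate 1 or 3 was dropped, and 7 each when aged injury replicate 2 or 3 was. H2-D1 (chr17:35262730-35267499), a classical heavy chain, was at 66.7, 80.9 and 61.8 FPKM in young sham, 123, 133 and 111 in aged sham and 113, 132 and 105 in aged injury. H2-D1 changed by 0.74 ± 0.12 SE on the log2 scale (adjusted p = 0.00615). All 6 old libraries lay above the young ones and the old sham and injured libraries overlapped (position 1.1, log2 change -0.07 ± 0.12 SE for injury against aged sham). H2-K1, the other classical heavy chain of this strain, was at 35.9, 41.4 and 29.4, 60.5, 88.5 and 60.8 and 55.5, 103 and 64.4 FPKM in the same order (adjusted p = 0.0245), with replicate 2 the highest of each old group. Its call was lost without any 1 of young sham replicates 1 and 3 and aged injury replicate 3 (adjusted p = 0.0567 to 0.0906). H2-Q4, H2-Q6 and H2-Q7, nonclassical heavy chains whose near-identical sequences can share reads, had positions of 0.972, 0.882 and 0.919. H2-Q4 lost its call without young sham replicate 3 (adjusted p = 0.0595). The H2-Q6 call was lost without young sham replicate 3 (adjusted p = 0.0561). H2-Q7 lost its call without any 1 of young sham replicates 1 and 3 (adjusted p = 0.0524 to 0.0556). Of the 10 class II genes, which antigen-presenting cells express, H2-Ab1 and Cd74 rose (20%, against 8.55% of all genes) and 0 fell. Neither was called without the filter, while the median log2 change of all 10 was 1.31. With the replicate block or without aged injury replicate 1 there were 6 rises. No rise was left when any 1 young sham library or aged injury replicate 2 or 3 was dropped. H2-Ab1 went from 17.9, 20.9 and 15.4 FPKM to 29, 81.1 and 40.2 FPKM (adjusted p = 0.0348), highest in replicate 2. H2-Ab1 lost its call without any 1 of young sham replicates 1, 2 and 3 and aged injury replicates 2 and 3 (adjusted p = 0.0516 to 0.115). The Cd74 call was lost without any 1 of young sham replicates 1, 2 and 3, aged sham replicate 3 and aged injury replicates 2 and 3 (adjusted p = 0.0605 to 0.127).

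Of 23 macrophage genes, 12 rose (52.2%, against 8.55% of all genes) and 0 fell (median log2 change 0.75, median position 0.943). Dropping young sham replicate 1 or 3 left 6 each, and dropping aged injury replicate 2 or 3 left 7 and 5. Lgals3 (chr14:47367751-47386160), galectin 3, had the smallest p of all list members. It was at 8.86, 9.14 and 8.92 FPKM in young sham, 22.2, 19.5 and 19.6 in aged sham and 23.9, 22.3 and 21.3 in aged injury. Lgals3 changed by 1.31 ± 0.07 SE on the log2 scale (adjusted p = 0.000184). The step from young to old sham alone was 1.18 ± 0.07 SE (adjusted p = 0.000501). Aged injury against aged sham was 0.14 ± 0.07 SE (adjusted p = 0.313), which did not pass the test. Fcer1g, a signalling subunit of Fc receptors, was at 4.83, 7.24 and 6.05, 10.6, 13.6 and 12.9 and 9.52, 13.8 and 12.3 FPKM in the same order (adjusted p = 0.00979, position 1.07). Mrc1, the mannose receptor of resident macrophages, stood apart from these with 2.53, 2.23 and 2.95 FPKM in young sham, 2.9, 3.41 and 2.59 in aged sham and 4.27, 4.18 and 5.04 in aged injury (adjusted p = 0.00886, position 0.252). Cd163, the receptor for hemoglobin complexes, lay between at 0.605 (log2 change 1.18, adjusted p = 0.0101). Neutrophil and bone marrow genes gave no call among 15 tested in limma, 2 at an unadjusted p under 0.05, and their median log2 change was 0.34 from end to end, against 1.31 for aged sham over young sham.

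Among 16 complement genes, 9 rose (56.25%, against 8.55% of all genes) and 1 fell (6.25%, against 4.79%). The median position was 0.76. With young sham replicate 1 or 3 dropped 4 rises each were left, and with aged injury replicate 2 or 3 dropped 5 and 4. C4b (chr17:34728380-34743882), which encodes complement component 4, was at 4.25, 4.29 and 4.07 FPKM in young sham, 6.59, 8.75 and 9.38 in aged sham and 10.2, 10.6 and 10.2 in aged injury. It rose 2.42-fold (log2 change 1.28 ± 0.12 SE, adjusted p = 0.000676), and all 3 groups were apart from each other. C1qb, a chain of the recognition protein C1q that macrophages make, was at 13.3, 13.3 and 14, 24.9, 38 and 26.7 and 27.1, 36.3 and 31.6 FPKM in the same order (adjusted p = 0.00267, position 0.918). C1qc had a position of 1.03. Serping1, the inhibitor of C1, rose 1.57-fold and lay between at 0.535. The member that fell was Cd55, which limits complement on cell surfaces (log2 change -0.35, adjusted p = 0.0261). Cd55 lost its call without any 1 of young sham replicates 1 and 3 and aged injury replicates 1 and 3 (adjusted p = 0.0539 to 0.0946).

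Antibody genes had the largest rises of the whole comparison. Igkc (chr6:70726435-70726966), the constant region of kappa light chains, was at 12.2, 9.22 and 10.3 FPKM in young sham, 68.5, 528 and 304 in aged sham and 252, 2150.2 and 980.0 in aged injury. It rose 76.5-fold (log2 change 6.26 ± 0.83 SE, adjusted p = 0.00306) and lay at position 0.702. The lowest old library was above every young one, yet the old libraries ran over a wide range and overlapped, with replicate 2 the highest and replicate 1 the lowest in both old groups. Jchain, the chain that joins secreted IgA and IgM, had the same order with 0.502, 0.399 and 0.691 FPKM in young sham, 2.01, 18.8 and 8.56 in aged sham and 10.2, 72.7 and 32.8 in aged injury (adjusted p = 0.00477, position 0.631). For Igkc and Jchain the position is higher, nearer the injured end, without aged sham replicate 1. Ighg2b, a heavy chain of IgG, went from 0.526, 0.0797 and 0.177 FPKM to 5.21, 75.2 and 27 FPKM (adjusted p = 0.00771). Ighg1 went from 0, 0.0826 and 0.184 FPKM to 3.43, 10.6 and 30.1 FPKM (adjusted p = 0.0105). Ighg3 was listed at 0 in all 3 young libraries and at 2.75, 8.9 and 1.94 FPKM in aged injury (adjusted p = 0.00518). Ighg1 and Ighg3 averaged below 0.2 FPKM in young sham. They passed the filter through the old libraries and could hardly fall, so their direction is a description only. Heavy chain genes resemble each other, so the split of reads among them is uncertain. Ighm, the heavy chain of IgM, was at 26.1, 20.6 and 25 FPKM in young sham, 45.7, 211 and 135 in aged sham and 95.1, 759 and 329 in aged injury (adjusted p = 0.0143). Ighm lost its call without any 1 of young sham replicate 3 and aged injury replicate 3 (adjusted p = 0.0513 to 0.0534). Igha rose with a log2 change of 4.19. Igha lost its call without any 1 of young sham replicates 1, 2 and 3 and aged injury replicates 2 and 3 (adjusted p = 0.0624 to 0.106).

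Of 19 tested B and plasma cell genes, 9 rose (47.4%, against 8.55% of all genes) and 0 fell (median log2 change 3.13). Dropping young sham replicate 1, 2 or 3 left 7, 7 and 6 rises, and dropping aged injury replicate 2 or 3 left 7 and 6. There were 15 with the replicate block, and 12 each with array weights, without aged sham replicate 2 or without aged injury replicate 1. With Y-linked expression as a covariate 0 rose and the median was 0.04. In that fit 0 also rose among injury transcription factors and the class I, class II, interferon, complement, chemokine and T cell lists. The median there was -0.32 for the T cell list and 0.63 for injury transcription factors. Of the 19, 3 averaged below 0.2 FPKM in young sham, 2 of them called. These 3 passed the filter through the old libraries and could hardly fall. The summed level of the list was 54.8 to 57.6 FPKM in young sham, 147 to 896 FPKM in aged sham and 434 to 3338 FPKM in aged injury. Of the 161 variable, joining and diversity segments of antibodies and T cell receptors, 46 rose (28.6%, against 8.55% of all genes) and 0 fell. The 46 were 26 of kappa chains, 17 of heavy chains, 1 of lambda chains and 2 of T cell receptors. Of the 161, however, 130 averaged below 0.2 FPKM in young sham, 80 of them at 0 in all 3 libraries, and passed the filter through the old libraries. These could hardly fall, so the counts are a description only, and 39 of the 46 are among them. With a pseudocount of 1 the rises numbered 22. Dropping young sham replicate 1, 2 or 3 left 22, 29 and 20, and dropping aged injury replicate 2 or 3 left 23 and 27. Among 17 genes of T and cytotoxic lymphocytes, 3 rose, Trbc1 and Trbc2 among them (17.6%, against 8.55% of all genes), and 0 fell, with 14 of the 17 at an unadjusted p under 0.05 and a median log2 change of 2.38. Here too 9 of the 17 averaged below 0.2 FPKM in young sham, 1 of them called. These 9 passed the filter through the old libraries and could hardly fall. No rise was left when young sham replicate 1 or 3 was dropped, and 1 when young sham replicate 2 or aged injury replicate 2 or 3 was. There was 1 with a pseudocount of 1 or without the filter, 8 with array weights and 10 with the replicate block. There were 6 each with a pseudocount of 0.01, without aged sham replicate 2 or without aged injury replicate 1. Trbc1, which encodes a constant part of the receptor beta chain, was at 0.148, 0.157 and 0 FPKM in young sham, 0.91, 5.78 and 1.52 in aged sham and 0.605, 7.12 and 1.57 in aged injury (adjusted p = 0.034, position 1.02). Trbc1 lost its call without any 1 of young sham replicates 1, 2 and 3 and aged injury replicates 2 and 3 (adjusted p = 0.0534 to 0.117). The Trbc2 call was lost without any 1 of young sham replicates 1, 2 and 3, aged sham replicate 3 and aged injury replicates 1, 2 and 3 (adjusted p = 0.057 to 0.138). The summed level of the T cell list was 4.45 to 6.69 FPKM in young sham, 9.1 to 65.7 in aged sham and 13.1 to 87.5 in aged injury, again highest in replicate 2 of each old group. Gimap3, a GTPase of lymphocytes, went from 0, 0.0888 and 0.494 FPKM to 1.43, 11.8 and 3.36 FPKM (adjusted p = 0.0272). Lat, an adaptor of the T cell receptor, went from 0.0612, 0.195 and 0.217 FPKM to 0.849, 4.77 and 1.42 FPKM (adjusted p = 0.031). Gimap3 and Lat averaged below 0.2 FPKM in young sham. They passed the filter through the old libraries and could hardly fall, so their direction is a description only. Gimap3 lost its call without any 1 of young sham replicates 1 and 2 and aged injury replicates 2 and 3 (adjusted p = 0.0608 to 0.0955), and Lat without any 1 of young sham replicates 1, 2 and 3 and aged injury replicates 2 and 3 (adjusted p = 0.0544 to 0.103).

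**Figure D4:**
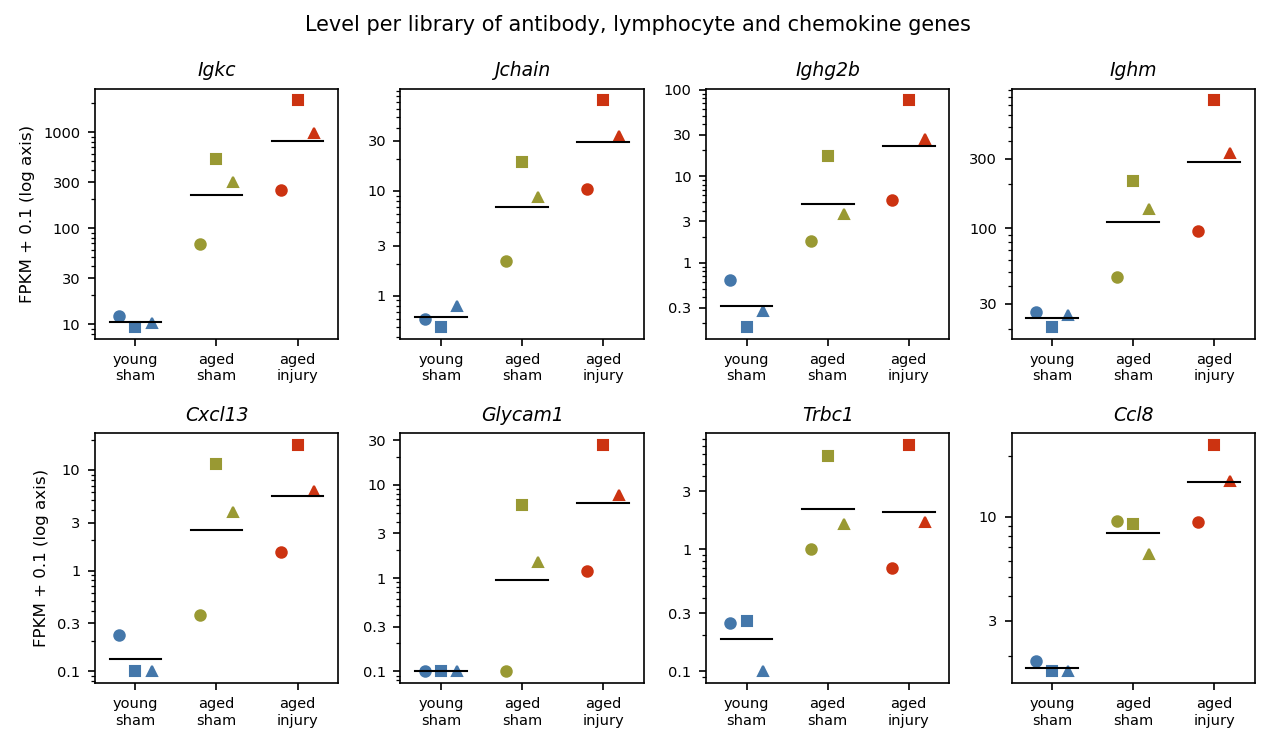
FPKM + 0.1 on a log axis (vertical) in each of the 9 libraries for 8 genes of antibodies, lymphocytes and chemokines, with colours, marks and bars as in the plot of 12 genes. Replicate 2 (square) is the highest and replicate 1 (circle) the lowest library of each old group for Igkc, Jchain, Ighg2b, Ighm, Cxcl13, Glycam1 and Trbc1, and Ccl8 is above the young level in all 6 old libraries.

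Chemokines and their receptors rose in 12 of 27 tested (44.4%, against 8.55% of all genes) and fell in 0 (median log2 change 1.09). Of the 27, 7 averaged below 0.2 FPKM in young sham, 2 of them called. These 7 passed the filter through the old libraries and could hardly fall. The rises numbered 5, 5 and 6 when young sham replicate 1, 2 or 3 was dropped, and 7, 3 and 3 when aged injury replicate 1, 2 or 3 was. Without the filter there were 6, and with equal medians 1 fell. Ccl8 (chr11:82115185-82116799), a monocyte attractant made by tissue macrophages, had the firmest rise. It was at 1.78, 1.57 and 1.58 FPKM in young sham, 9.42, 9.12 and 6.38 in aged sham and 9.33, 22.8 and 15.1 in aged injury. Ccl8 changed by 3.09 ± 0.28 SE on the log2 scale (adjusted p = 0.000676, position 0.728). The step to old sham alone was 4.76-fold (adjusted p = 0.0112), and the 2 old groups overlapped. Cxcl13, which draws B cells into lymphoid tissue, was at 0.129, 0 and 0 FPKM in young sham, 0.265, 11.4 and 3.71 in aged sham and 1.43, 17.7 and 6.09 in aged injury (adjusted p = 0.0224, position 0.79). Its position is higher without aged sham replicate 1, the lowest aged sham library. Cxcl13 lost its call without any 1 of young sham replicates 1, 2 and 3 and aged injury replicates 2 and 3 (adjusted p = 0.0517 to 0.0779). Ccl5, a chemokine of T cells, rose from 0.158, 1.01 and 0.467 FPKM to 2.51, 9.88 and 2.17 FPKM (adjusted p = 0.0391). Ccl5 lost its call without any 1 of young sham replicates 1 and 3, aged sham replicate 3 and aged injury replicates 1, 2 and 3 (adjusted p = 0.0548 to 0.128). Glycam1, a mucin of the high endothelial venules of lymph nodes, was listed at 0 in all 3 young libraries and passed the filter through the old ones. Its aged sham values were 0, 5.88 and 1.37 FPKM, and those of aged injury 1.09, 26.7 and 7.7 FPKM (adjusted p = 0.0279). Glycam1 lost its call without any 1 of young sham replicates 1, 2 and 3 and aged injury replicates 2 and 3 (adjusted p = 0.0577 to 0.0879). Ubd, a ubiquitin-like protein of lymphoid and inflamed tissue, was likewise highest in replicate 2 of each old group with 0, 2.12 and 0.751 and 0.465, 4.7 and 1.89 FPKM (adjusted p = 0.0483). Ubd lost its call without any 1 of young sham replicates 1, 2 and 3, aged sham replicate 3 and aged injury replicates 2 and 3 (adjusted p = 0.0651 to 0.135). Cxcl13, Glycam1 and Ubd were lowest in replicate 1 and highest in replicate 2 of each old group, as were the summed B and T cell levels. The part of those cells in the result was not tested. Cxcl16 (log2 change 1.03, position 0.76) and Ccl9 (1.10, position 0.558), chemokines of myeloid cells, kept their calls in each of the fits that left out 1 library. Ccl7, another monocyte attractant, lay at the young end (0.168). Ccl7 lost its call without any 1 of aged injury replicates 1, 2 and 3 (adjusted p = 0.0504 to 0.0699).

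Of 22 genes of lymphotoxin, tumor necrosis factor and NF-kB signalling, 6 rose (27.3%, against 8.55% of all genes) and 1 fell (4.55%, against 4.79%). When young sham replicate 1 or 3 was dropped 3 rises each were left. The fall, of the adaptor Traf3 (log2 change -0.27, adjusted p = 0.0374), was lost without any 1 young sham library and without aged injury replicate 1 or 3. Tnfrsf1b, the second receptor of tumor necrosis factor, was at 1.87, 1.85 and 1.48 FPKM in young sham, 3.36, 4.88 and 3.44 in aged sham and 5.25, 6.32 and 5.63 in aged injury. Tnfrsf1b changed by 1.67 ± 0.16 SE on the log2 scale (adjusted p = 0.000699). All 3 groups were apart, at position 0.663. Tnfrsf1a, the first receptor, rose 1.45-fold and Rela, the p65 subunit of NF-kB, 1.41-fold, at positions 0.532 and 0.486.

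Myelin genes were lower in injured old ganglia than in young ones. Of 15 genes of myelinating Schwann cells, 8 fell (53.3%, against 4.79% of all genes) and 0 rose (median log2 change -0.43, median position 0.766). Without replicate 2 of both old groups 5 fell. Pmp22 (chr11:63128982-63159547), a membrane protein of peripheral myelin, was at 1019, 879 and 909.5 FPKM in young sham, 605, 622 and 590.0 in aged sham and 604, 608 and 666 in aged injury. Pmp22 changed by -0.58 ± 0.07 SE on the log2 scale (adjusted p = 0.00271, position 1.08), with adjusted p = 0.00966 for aged sham against young and 0.781 for injury against aged sham. Ugt8a, which makes the myelin lipid galactosylceramide, was at 40.9, 30 and 38.9 FPKM in young sham, 15.5, 19.4 and 13.8 in aged sham and 13.4, 15.8 and 14.3 in aged injury (adjusted p = 0.00131, position 0.885). Pmp2, a fatty acid binding protein of myelin, had one of the largest falls, from 58.6, 44.5 and 50.9 FPKM over 22, 28.1 and 27.8 to 9.26, 16.3 and 18.3 FPKM (log2 change -1.86 ± 0.23 SE, adjusted p = 0.00227). It lay between the ends at 0.529 with no overlap of the groups.

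Satellite glial genes went both ways, with 3 of 12 higher and 3 lower (25% each, against 8.55% and 4.79% of all genes). Gfap, the filament that reactive glia add, rose 4.26-fold. It was at 0.36, 0.381 and 0.595 FPKM in young sham, 1.29, 1.36 and 1.44 in aged sham and 2.47, 1.85 and 2.28 in aged injury (adjusted p = 0.000676, position 0.692). Ednrb, the endothelin B receptor, fell from 37.5, 30.2 and 40.6 FPKM to 16.5, 18.1 and 16.1 FPKM (adjusted p = 0.000707) and was already at 19, 17.4 and 19.1 FPKM in aged sham (position 0.879). Gja1, the gap junction protein connexin 43, fell with a log2 change of -0.68 and a position of 1.19. Entpd2, an enzyme that breaks down extracellular nucleotides, rose past the injured end, with 4.06, 4.88 and 4.5, 8.14, 7.46 and 7.37 and 6.69, 6.51 and 7.38 FPKM in young sham, aged sham and aged injury (adjusted p = 0.0044, position 1.26). Slc1a2, a glutamate transporter known from astrocytes, rose from 0.468, 0.392 and 0.382 FPKM to 1.72, 1.29 and 1.39 FPKM (adjusted p = 0.000981) and was at 1.11, 1.04 and 1.02 FPKM in aged sham.

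Receptors and channels of sensory neurons gave 5 rises (17.2%, against 8.55% of all genes) and 6 falls (20.7%, against 4.79%) among 29 tested. Under equal medians there were 3 rises. Dropping young sham replicate 3 or aged injury replicate 3 left 3 and 3, and dropping young sham replicate 1 left 3 and 4. Gabra2 (chr5:70957597-71095849), a subunit of the GABA A receptor, was at 38.4, 33.1 and 24.6 FPKM in young sham, 9.13, 8.17 and 8.21 in aged sham and 8.59, 9.64 and 7.61 in aged injury. The fall was 3.65-fold (log2 change -1.87 ± 0.15 SE, adjusted p = 0.000506), the 6 old libraries overlapped, and the position was 1.01, with injury against aged sham at 0.01 ± 0.15 SE. Gfra3, the receptor subunit for artemin, rose from 23.1, 19.8 and 19.7 FPKM to 32.2, 32.7 and 34.6 FPKM and was at 32.8, 29.7 and 28.1 FPKM in aged sham (adjusted p = 0.00193, position 0.795). Mrgprx1, an itch receptor, fell from 14.1, 15.3 and 14.7 FPKM to 9.62, 10.4 and 11 FPKM (adjusted p = 0.00384, position 0.258).

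Identity genes of sensory neurons fell in 6 of 19 (31.6%, against 4.79% of all genes) and rose in 0 (median log2 change -0.18). The count was 2 each with young sham replicate 1 or 3 dropped, and 3 with aged injury replicate 3 dropped or without the filter. Isl1 (chr13:116298281-116309689), a homeobox factor of sensory neurons, was at 26.8, 26 and 28.4 FPKM in young sham, 22.6, 20.7 and 21.1 in aged sham and 17.9, 18 and 17.8 in aged injury. Isl1 changed by -0.59 ± 0.06 SE on the log2 scale (adjusted p = 0.000707). Its 3 groups did not overlap, both steps passed the test (adjusted p = 0.0284 and 0.0391), and the position was 0.561. Pou4f1, a partner factor known as Brn3a, went from 55.7, 54.6 and 57.3 FPKM to 43.5, 38.5 and 40.4 FPKM and was at 42.3, 41.9 and 43.4 FPKM in aged sham (adjusted p = 0.00227, position 0.865). Prdm12, a nociceptor factor, fell only a little and lay past the young end (-0.28, position -0.284). Prdm12 lost its call without any 1 of young sham replicates 1 and 3 and aged injury replicate 3 (adjusted p = 0.051 to 0.0755). Nefl had a log2 change of -0.42 (adjusted p = 0.0153). Nefl lost its call without any 1 of young sham replicates 1 and 3 (adjusted p = 0.059 to 0.0637).

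The largest falls by rank included genes from several cell types. Tyrp1 (chr4:80834123-80851719), a melanin enzyme of pigment cells, was at 7.29, 4.61 and 7.03 FPKM in young sham, 0.769, 0.729 and 0.577 in aged sham and 0.70, 0.851 and 0.51 in aged injury. Tyrp1 changed by -3.02 ± 0.22 SE on the log2 scale (adjusted p = 0.000462). All 6 old libraries were below every young one and overlapped, at position 0.992. Only 3 of 9 melanocyte genes were above the filter, and the other two did not pass the test. Gdpd3, a lysophospholipase D, fell from 12.9, 6.72 and 6.56 FPKM to 2.5, 2.19 and 2.93 FPKM (adjusted p = 0.00371, position 1.21). Prss35, a protease-like gene, fell from 23, 17.7 and 23.9 FPKM to 9.82, 10.4 and 9.46 FPKM (adjusted p = 0.00089, position 0.89). Nog, the bone morphogenetic protein antagonist noggin, was at 2.41, 3.18 and 3.36 FPKM in young sham, 2.02, 2.98 and 2.22 in aged sham and 1.19, 1.21 and 0.918 in aged injury (adjusted p = 0.00347, position 0.224). Klrb1a, a receptor of natural killer cells, fell from 2.08, 1.33 and 2.04 FPKM to 0.486, 0.744 and 0.755 FPKM (adjusted p = 0.00886, position 0.189). Rem2, a small GTPase that restrains calcium channels, and Vstm2b fell 2.37-fold and 2.25-fold and lay between the ends at 0.566 and 0.567. Angptl7, an angiopoietin-like protein, fell 2.17-fold. Angptl7 lost its call without any 1 of young sham replicate 1 and aged injury replicates 1, 2 and 3 (adjusted p = 0.0532 to 0.0662).

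Ckmt2 and Apobec2, which muscle expresses, and Klhl33 were among these falls. Ckmt2, the mitochondrial creatine kinase of striated muscle, was at 5.21, 4.17 and 0.543 FPKM in young sham, 0.889, 0.302 and 2.67 in aged sham and 0.125, 0.344 and 0.108 in aged injury (adjusted p = 0.0446). Ckmt2 lost its call without any 1 of young sham replicates 1 and 2, aged sham replicate 1 and aged injury replicates 1, 2 and 3 (adjusted p = 0.059 to 0.144). Apobec2 was at 3.11, 3.17 and 1.32 FPKM in young sham and 0.457, 0.659 and 0.856 FPKM in aged injury (adjusted p = 0.0396). Apobec2 lost its call without any 1 of young sham replicates 1 and 2 and aged injury replicates 1, 2 and 3 (adjusted p = 0.0736 to 0.128). Klhl33 fell 2.14-fold and lost its call without any 1 of young sham replicates 1 and 3 and aged injury replicate 3 (adjusted p = 0.0561 to 0.0665). None of the 8 skeletal muscle markers passed the test in limma, 5 of them at an unadjusted p under 0.05. They summed to 43.1 to 392 FPKM in young sham, 14 to 272 FPKM in aged sham and 3.93 to 41.1 FPKM in aged injury. The sum was highest in young sham replicates 1 and 2 and aged sham replicate 3, at 392, 196 and 272 FPKM, the libraries in which Ckmt2 and Apobec2 were highest too. Its part in these falls was not tested. Red blood cell markers (6 tested) and adipocyte markers (4 tested) gave no call in limma and 0 at an unadjusted p under 0.05. Of 24 collagen and matrix genes, Col3a1, Sparc and Lox fell (12.5%, against 4.79% of all genes) and 0 rose. No fall was left when young sham replicate 1 or 3 was dropped, 1 when aged injury replicate 1 was, and 2 each when young sham replicate 2 or aged injury replicate 2 was.

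In 78 genes old sham ganglia went past the injured end, and the 6 with the largest change were Gpnmb, Lox, Cldn9, Entpd2, Pltp and Crip1. Pltp, the phospholipid transfer protein, was at 5.03, 5.12 and 4.02 FPKM in young sham, 8.13, 8.85 and 10.3 in aged sham and 7.27, 6.81 and 7.35 in aged injury. Pltp changed by 0.59 ± 0.11 SE on the log2 scale (adjusted p = 0.0126, position 1.57). Gpnmb, a glycoprotein of lipid-laden macrophages, was at 1.32, 1.86 and 1.39, 3.74, 12.5 and 9.59 and 4.43, 5.28 and 4.39 FPKM in the same order (adjusted p = 0.0249), and aged sham replicates 2 and 3 stood above every injured library. Lox, which cross-links collagen, fell from 9.44, 7.56 and 6.87 FPKM to 3.98, 4.03 and 5.65 FPKM (adjusted p = 0.0277), with aged sham lower still at position 1.93. In these 6 genes the adjusted p of injury against aged sham ran from 0.0658 to 0.49, so the step back from old sham did not pass the test. Gpnmb lost its call without any 1 of young sham replicates 1 and 3 and aged injury replicates 1, 2 and 3 (adjusted p = 0.0589 to 0.084). The Lox call was lost without any 1 of young sham replicates 1, 2 and 3 and aged injury replicates 1 and 2 (adjusted p = 0.0505 to 0.0982). Crip1 lost its call without any 1 of young sham replicates 1 and 3 and aged injury replicates 2 and 3 (adjusted p = 0.0648 to 0.080). For Cldn9, a claudin, the call was lost without any 1 of young sham replicates 1 and 3, aged sham replicates 1, 2 and 3 and aged injury replicates 1 and 3 (adjusted p = 0.0607 to 0.153).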

How the data were processed

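RNA of whole sciatic ganglia was extracted with a column kit and DNase, RNA with an integrity number above 7.5 went into Illumina TruSeq mRNA libraries, and these were sequenced from both ends, per the labels' protocols. The authors deposited 1 table of FPKM per gene and library, per the file headers. Tools named in the submitters' processing notes are limma 3.22.7, edgeR 3.8.6, HTSeq 0.6.0, SAMtools 0.1.19, Bowtie2 2.2.3 and TopHat2 2.0.12, and the build is mm10. Annotation, strand handling, per-library scaling and depth were not given in the sources used here, so reads of overlapping or near-identical genes may be split. Symbols and positions came from GENCODE M21 on the same build.

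All 9 libraries entered 1 limma 3.58.1 fit (R 4.3.3) on log2(FPKM + 0.1) with a mean-variance trend, two-sided, Benjamini-Hochberg adjusted over the 17601 identifiers with a mean of at least 0.2 FPKM, called under 0.05. Fold changes are on that scale, which understates changes of low genes. The scripts were tested on simulated data. The p-values measure the spread between pools of 2 mice. The position of aged sham is its log2 difference from young sham divided by that of aged injury, given for called genes only and with no test. Positions without aged sham replicate 1, the library with RNA of both sexes, are given for some genes only.

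The comparison, the gene lists (510 of 514 genes matched, 480 tested) and the rules were chosen with earlier results of these data known. The largest changes were ranked among called genes that did not overlap between the ends and averaged 1 FPKM or more over the 6 end libraries, passing over predicted genes, clones, small RNAs and antigen receptor segments. Named were the 15 largest rises and falls and the 6 largest changes in each placement class. Added to these, whatever their level or call, were the members with the smallest p in each list (4 at most) and 12 set genes, 160 in all, of which the text names a part. Plaur, Stat3, Cebpd, Areg, Stmn4, Tgfb1, Bst2, Cd55 and Traf3 were added after their values were seen. Some list members are counted but not reported here by name. Alternatives were other pseudocounts, filters, scalings, weights and libraries, a replicate block and a covariate for sex.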

Additional observations from a re-analysis of the deposited data

How the results depend on the processing

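The count of 2162 calls (1386 higher, 776 lower) stayed within 1.5 times under both other pseudocounts, both other filters, equal medians, quantile normalization, a fit of the 6 end libraries and an adjustment over autosomal genes, from 1637 to 2509. Equal medians gave 1524 lower genes. Array weights gave 3511 calls, 1450 of them lower. The covariate for Y-linked expression gave 15 calls, 15 higher and 0 lower, and Cxcl13 (-0.60), Glycam1 (-1.08), Gpnmb (-0.71), Igha (-1.75), Trbc2 (-0.57) and Ubd (-1.58) turned lower on the log2 scale, none of them called. Leaving out 1 library gave 895 to 2273 calls, 625 to 1467 higher and 256 to 806 lower. Leaving out replicate 2 of both old groups, chosen after seeing the data, gave 1248 calls, 855 higher and 393 lower, and a median position of 0.420. The median position was 0.475 with a pseudocount of 1, 0.544 with equal medians and 0.377 to 0.614 with 1 library left out. Fewer libraries enter the fits that leave some out, and the cause of the other shifts was not tested.

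With the replicate block there were 1466 calls, 1063 higher and 403 lower. Same-numbered libraries correlated from -0.076 to 0.321 in their deviations from the group means. Between aged sham and aged injury, replicates 1, 2 and 3 gave 0.297, 0.321 and 0.05. Aged sham replicate 1 with aged injury replicate 2 gave -0.317, and aged sham replicate 2 with aged injury replicate 1 gave -0.268. Replicates 1 and 2 of the old groups thus shared part of their deviations by number. Not every library correlated best with its own number, and the numbers were not taken to pair the pools in the main fit. Absolute depth is unknown, so no counting interval was given, and a value listed at 0 has no stated limit.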
